A study of Mus musculus with 172 samples.

Results

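The genes described here are 34 genes used as markers of brain blood vessels, chosen by name with earlier results of these data known. All 34 have values among the 14896 genes listed in cortex for both conditions. Of the 34 genes, 27 mark endothelial cells and 7 mark mural cells. RNA-seq was done on adult male mice of the BXD panel, recombinant inbred lines derived from C57BL/6J and DBA/2J. Sleep-deprived mice (SD) were kept awake by gentle handling for the first 6 h after light onset, and control mice (Ctr) could sleep, and both were killed 6 h after light onset. The RNA of the mice of a line and condition was pooled by the authors before sequencing, from fewer mice for BXD79, BXD85 and BXD101. A library is therefore a pool of 1 line, and the lines, not the mice, are the units below. The comparison of SD with Ctr rests on 39 pools per condition. They come from 33 BXD/RwwJ lines, from the parents C57BL/6J and DBA/2J, each with a first and a second pool from the start and the end of the study, and from the reciprocal BD-F1 and DB-F1 hybrids. Counts of lines below are over these 39 pairs of pools, so each parental strain counts with both its pools. BXD96, BXD97 and BXD103 carry in the labels the subline names 48a, 65a and 73b. No mouse carried a transgene or a targeted allele. The BXD/TyJ lines 05, 29, 29t and 32 were kept apart, and the 172 libraries of the series also cover liver.

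Endothelial cells line the vessel. In the brain they are sealed by tight junctions, take up little by vesicles and carry nutrients and lipids by named transporters, which together make the blood-brain barrier. Mural cells sit around them, pericytes on capillaries and smooth muscle cells on arterioles and larger vessels. Both are a minority of the cells in cortex.

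The deposited values are in log2 CPM, a gene's share of the reads of its library after the authors' scaling, on a log2 scale. Cortex libraries held 18995492 to 28998853 reads in Ctr (median 22170272) and 19025159 to 28685060 in SD (median 22713295). Most members were well covered, and the least were Bmx, with 38.8 reads per Ctr pool on average, and Gkn3, with 50.1 in Ctr and 17.7 in SD. Markers of other cells were listed beside the vessels. The summed level of the 9 astrocyte markers was 4576 to 7198 CPM in Ctr, against 799 to 1112 CPM for the 27 endothelial members and 188 to 283 CPM for the 7 mural ones. Choroid plexus markers (6 of 10 listed) summed to 8.68 to 246 CPM in Ctr and 7.92 to 420 CPM in SD. Liver libraries were shallower, with 4681101 to 8269401 reads. Some cortex pools stood apart. The Ctr pool of BXD85 had the highest level of 20 of the 34 members, against 3.87% of all genes. The Ctr pool of BXD90 was the lowest of all pools for 6 members and for 19.6% of all genes, and the highest for 17.0% of all genes. The Ctr pool of BXD56 was the highest for 3 members and the lowest for 1, and it was the highest for 11.5% and the lowest for 7.51% of all genes. The counts of calls in cortex and the correlations over pools are given with and without BXD85 and BXD90. BXD56 was not left out in this way. In bulk tissue, fewer cells of a type and less RNA per cell cannot be told apart.

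The promoters of 4 genes are printed here because these are the members with the largest rises and falls for which the table lists a single promoter. They are taken from RefSeq (GRCm38.p6), from 250 bases before to 50 bases after the start of the gene, 5′ to 3′ on the strand of the gene. Capitals mark CACCC or its reverse complement GGGTG, the core letters bound by factors of the Krüppel-like family.
Mfsd2a (chr4:122961139-122961438, minus strand): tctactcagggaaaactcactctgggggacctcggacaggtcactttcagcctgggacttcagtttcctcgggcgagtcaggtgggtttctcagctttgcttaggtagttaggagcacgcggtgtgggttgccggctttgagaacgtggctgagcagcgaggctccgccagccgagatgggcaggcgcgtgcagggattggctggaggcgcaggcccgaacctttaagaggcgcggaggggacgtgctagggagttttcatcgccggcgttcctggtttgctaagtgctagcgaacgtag
Slco1c1 (chr6:141524104-141524403, plus strand): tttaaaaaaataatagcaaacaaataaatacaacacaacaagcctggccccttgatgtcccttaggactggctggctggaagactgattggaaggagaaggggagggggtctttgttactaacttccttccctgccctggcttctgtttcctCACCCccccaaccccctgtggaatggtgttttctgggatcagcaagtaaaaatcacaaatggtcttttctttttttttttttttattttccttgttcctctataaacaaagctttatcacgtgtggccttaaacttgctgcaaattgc
Gkn3 (chr6:87388886-87389185, minus strand): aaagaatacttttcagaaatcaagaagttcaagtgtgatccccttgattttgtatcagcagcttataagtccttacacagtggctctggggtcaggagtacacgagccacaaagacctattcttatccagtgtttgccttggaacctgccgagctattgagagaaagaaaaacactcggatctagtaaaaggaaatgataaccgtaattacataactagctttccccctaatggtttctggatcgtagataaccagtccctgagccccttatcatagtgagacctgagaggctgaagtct
Itm2a (chrX:107403311-107403610, minus strand): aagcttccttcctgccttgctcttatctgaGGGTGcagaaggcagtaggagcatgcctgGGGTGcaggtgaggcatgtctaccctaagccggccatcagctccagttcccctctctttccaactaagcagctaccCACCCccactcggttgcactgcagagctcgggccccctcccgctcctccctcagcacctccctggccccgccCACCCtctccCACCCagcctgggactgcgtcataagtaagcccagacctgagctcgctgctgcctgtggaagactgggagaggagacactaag
The letters occur 5 times in the promoter of Itm2a, once in that of Slco1c1 and not in the other two. A promoter was matched for 23 of the 34 members, taking the first listed for a gene. On either strand, CACCC stood in 16 of these 23 (69.6%), against 56.7% of 27025 promoters of all genes. The other sets of letters searched were GGAAGT, the core of the ETS family, in 6 of 23 against 24.1% of all promoters, CACGTG, an E-box, in 1 of 23 (Slco1c1) against 7.24%, and TGTTCT, a half-site of the glucocorticoid receptor, in 4 of 23 against 19.0%. None of these sets of letters holds another. These matches describe the letters alone.

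Sleep deprivation moved the vascular genes of cortex in both directions. Of the 34 members, 7 rose and 17 fell (limma, adjusted p under 0.05 by the Benjamini-Hochberg method across the 14896 genes), and 10 did not pass. Over all genes 68.4% passed, 33.0% higher and 35.4% lower in SD, so that the share of members called, 24 of 34, is close to that of the cortex as a whole. All 7 that rose are in the endothelial list, with Mfsd2a, Ly6c1 and Ly6a in front. Those that fell furthest were Gkn3, Itm2a and Bmx. The median log2 fold change was -0.05 over the endothelial members, -0.19 over the mural ones and -0.01 over all genes. A change of at least 0.5 on the log2 scale in either direction was found in 6 of 34 members (17.6%), all in the endothelial list, and in 7.24% of all genes. The members, the falling Gkn3 among them, were chosen with earlier results known, so these shares are no test of the list. With a replicate block for the line, 8 members rose and 17 fell, and 76.3% of all genes passed. The ranges of the Ctr and SD pools overlapped for all 34 members, and over all genes 1.40% had ranges that did not overlap. The summed level of the endothelial members was 883 CPM at the median of the Ctr pools and 885 CPM in SD, and that of the mural members was 222 and 196 CPM. Abundant genes weigh most in the endothelial sum, among them Tjp1 and Slco1c1, which rose, and Pltp and Slco1a4, which fell. Tjp1 and Slco1c1 are also expressed by other cells.

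**Figure D1:**
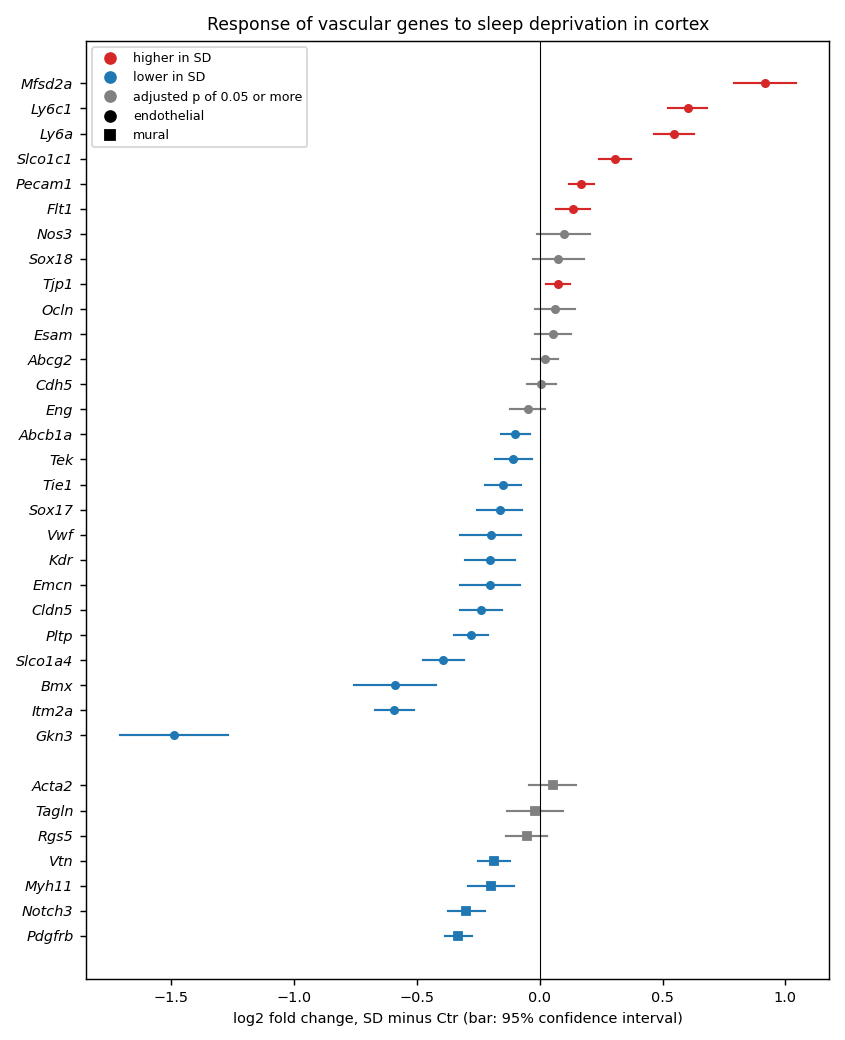
Log2 fold change of each of the 34 genes (vertical axis) with its 95% confidence interval (horizontal axis, SD minus Ctr, 39 pools per condition), endothelial genes as circles above and mural genes as squares below. Gkn3 at -1.49 lies furthest from 0, Mfsd2a at 0.92 is the highest, and no mural gene is called higher.

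Among the transporters and lipid carriers, 2 rose and 3 fell, and Abcg2 did not pass. Mfsd2a, which carries lysophosphatidylcholine with its omega-3 fatty acids into the brain and restrains vesicle transport in the endothelium, was at 3.81, 4.21 and 4.71 log2 CPM in Ctr (lowest, median and highest pool) and at 4.48, 5.14 and 6.01 in SD. In SD, 32 of 39 pools lay above the highest Ctr pool, and the level rose in 39 of 39 lines. The log2 fold change of Mfsd2a was 0.92 ± 0.06 (SE, adjusted p = 6.2e-23), a 1.89-fold rise. The change per line ran from 0.21 in BXD89 to 1.84 in BXD95, with an SD of 0.35 over lines. Slco1c1, a carrier of thyroxine that astrocytes also express, was at 6.07, 6.24 and 6.66 log2 CPM in Ctr and 6.22, 6.57 and 6.93 in SD. It rose by 0.31 ± 0.03 (adjusted p = 6.7e-14), in 38 of 39 lines, and 10 SD pools exceeded the highest Ctr pool, that of BXD85.

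Slco1a4, an organic anion carrier at the barrier, went the other way from Slco1c1, although both genes lie on chromosome 6 of mm9 (chr6:141753961-141804720, minus strand, and chr6:141472907-141518241, plus strand). Its levels were 5.70, 6.08 and 6.55 log2 CPM in Ctr and 5.12, 5.71 and 6.04 in SD. Slco1a4 was lower in SD in 39 of 39 lines, with a log2 fold change of -0.39 ± 0.04 (adjusted p = 7.1e-14), and 19 SD pools lay under the lowest Ctr pool. About 1.07% of its 100-base stretches are shared with Slco1a1 or Slco1a5, neighbours of the same family. Pltp, which transfers phospholipids between lipoproteins, also fell in every line (-0.28 ± 0.03, adjusted p = 2.7e-11), and 30 of 39 SD pools were under the lowest Ctr pool. The drug efflux pump Abcb1a fell by less (-0.10 ± 0.03, adjusted p = 2.1e-03), in 32 of 39 lines, and shares 7.72% of its stretches with Abcb1b or Abcb4. The efflux pump Abcg2 was at 4.40 ± 0.11 log2 CPM in Ctr and 4.43 ± 0.12 in SD (SD, n = 39, adjusted p = 0.46).

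All 5 surface and secreted markers passed the test, with a median absolute log2 fold change of 0.59, against 0.29 over the transporters. Over all genes 68.4% passed, and the median absolute log2 fold change was 0.13. The markers were chosen with earlier results known, the falling Gkn3 among them, so this contrast is no test of the group. Ly6c1 and Ly6a are small lipid-anchored proteins of the Ly6 family, both on chromosome 15 of mm9 (chr15:74875447-74879260 and chr15:74825308-74828064, minus strand). Ly6c1 was at 3.89, 4.29 and 4.63 log2 CPM in Ctr and 4.46, 4.87 and 5.30 in SD, so that 37 of 39 SD pools exceeded every Ctr pool. Its log2 fold change was 0.60 ± 0.04 (adjusted p = 3.0e-24), with a rise in 39 of 39 lines. Ly6a was at 3.60, 3.87 and 4.39 in Ctr and 4.23, 4.41 and 4.79 in SD, and rose by 0.55 ± 0.04 (adjusted p = 6.5e-21), again in 39 of 39 lines. The smallest rise of both was in BXD89, at 0.04 for Ly6c1 and 0.02 for Ly6a. Ly6c1 shares 15.4% of its 100-base stretches with Ly6c2, so that part of its reads cannot be assigned with certainty.

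Gkn3, a secreted protein known as a marker of arterial endothelium, had the largest fall. The gene lies at chr6:87333262-87338929 of mm9, on the minus strand. In Ctr it was at 0.41, 1.12 and 2.25 log2 CPM, and in SD at -1.88, -0.33 and 0.57. Of the 39 SD pools, 36 were under the lowest Ctr pool, and Gkn3 was lower in SD in 39 of 39 lines. Its log2 fold change was -1.49 ± 0.11 (adjusted p = 3.6e-21), a 2.81-fold fall, with changes per line from -2.73 in BXD49 to -0.20 in BXD45. The number of reads was small, with 5 in the SD pool with the fewest, so the SD values of Gkn3 carry more counting error than those of the other members. Itm2a, a membrane protein of the endothelium, was at 5.37, 5.74 and 5.99 log2 CPM in Ctr and 4.80, 5.13 and 5.65 in SD, with 34 SD pools under every Ctr pool. It fell by 0.59 on the log2 scale (SE 0.04, adjusted p = 4.6e-23) and in each of the 39 lines. Vwf, the clotting factor that endothelial cells store, fell by 0.20 (SE 0.06, adjusted p = 3.6e-03) in 33 of 39 lines.

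**Figure D2:**
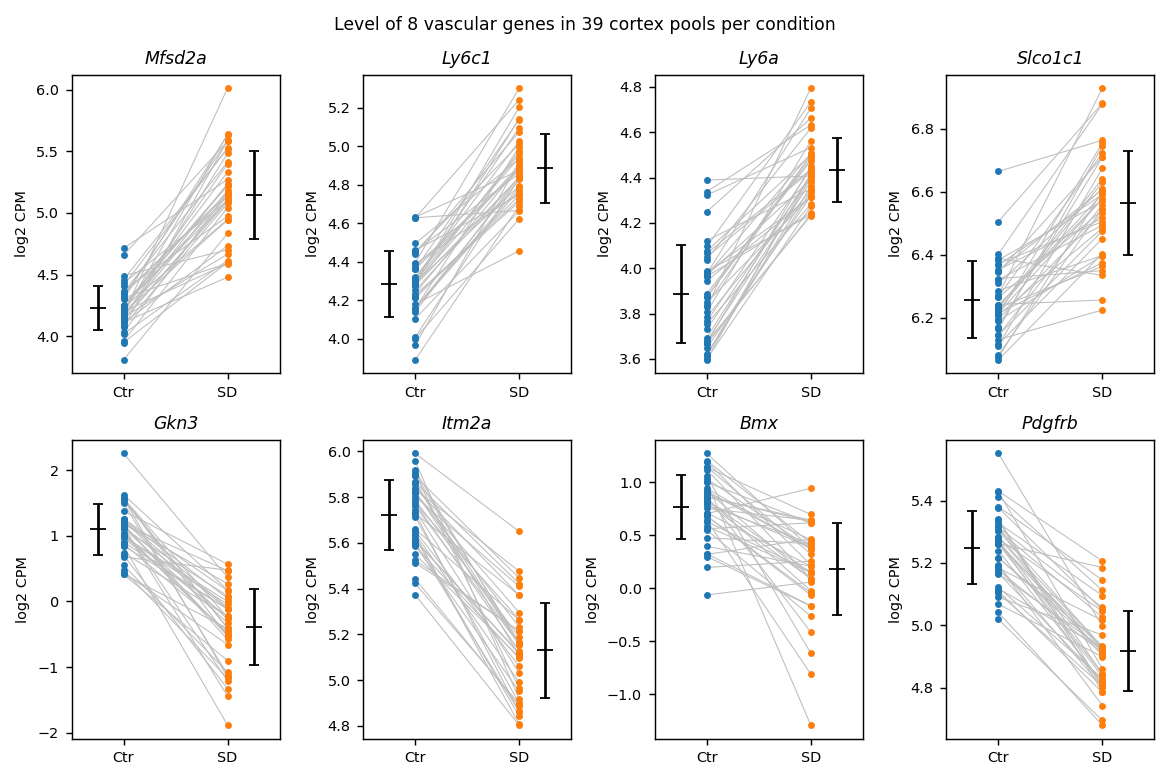
Level of 8 vascular genes in each of the 39 Ctr (blue) and 39 SD (orange) cortex pools, in log2 CPM on the vertical axis, with a grey line joining the pools of a line and black marks for mean ± SD. The lines of Mfsd2a, Ly6c1 and Ly6a all go up, those of Gkn3, Itm2a and Pdgfrb all go down, and the ranges of the conditions overlap for each gene.

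The receptors and signalling enzymes changed less, apart from Bmx. This tyrosine kinase, found in arterial endothelium, was at -0.06, 0.81 and 1.27 log2 CPM in Ctr and -1.29, 0.22 and 0.94 in SD. Bmx fell by 0.59 (SE 0.08, adjusted p = 2.9e-09) in 34 of 39 lines, with the largest fall, -2.30, in BXD49, the line with the largest fall of Gkn3. The VEGF receptors moved apart. Flt1 rose by 0.13 ± 0.03 (adjusted p = 4.4e-04), in 31 of 39 lines, whereas Kdr, the main signalling receptor for VEGF-A, had a log2 fold change of -0.20 ± 0.05 (adjusted p = 3.7e-04), with a fall in 32 lines. The angiopoietin receptor Tek and its relative Tie1 fell as well, by 0.11 (adjusted p = 0.011) and 0.15 (adjusted p = 2.8e-04). Eng, a co-receptor of the TGF-beta family, did not pass (-0.05 ± 0.04, adjusted p = 0.21), and its gene overlaps Ak1 on the same strand. Nos3, the endothelial nitric oxide synthase, was at 3.61 ± 0.20 log2 CPM in Ctr and 3.71 ± 0.28 in SD (SD, n = 39). Its change of 0.10 ± 0.05 missed the threshold (adjusted p = 0.11) and passed it once a replicate block for the line was added (adjusted p = 2.5e-03), being higher in 27 of 39 lines.

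Of the junction and adhesion proteins, Cldn5, the main claudin of the barrier, fell by 0.24 (SE 0.04, adjusted p = 1.3e-06) and in 35 of 39 lines. Its levels were 4.54, 4.95 and 5.45 log2 CPM in Ctr and 4.30, 4.68 and 5.12 in SD. Emcn, a sialomucin of veins and capillaries, fell by 0.20 (SE 0.06, adjusted p = 2.6e-03), in 28 lines. Pecam1, an adhesion molecule at endothelial contacts, rose by 0.17 ± 0.03 (adjusted p = 7.3e-09), in 36 of 39 lines. Tjp1, a scaffold of tight junctions that many cell types express, rose by 0.07 ± 0.02 (adjusted p = 6.4e-03), and with quantile normalization the value was 0.03 and did not pass (adjusted p = 0.24). Ocln, Esam and Cdh5, the tight junction protein, an adhesion molecule and the endothelial cadherin, had log2 fold changes of 0.06, 0.05 and 0.01 and did not pass. Their standard errors were 0.04, 0.04 and 0.03. The transcription factor Sox17, linked to arterial identity, fell by 0.16 (SE 0.05, adjusted p = 1.4e-03), and the related Sox18 did not pass (0.08 ± 0.05, adjusted p = 0.19). Over the 10 members that did not pass, the 95% confidence intervals of the log2 fold change stayed between -0.14 and 0.21.

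Of the mural members, 4 fell, 3 did not pass and none rose. Pdgfrb, the receptor through which endothelial PDGF-B holds pericytes, was at 5.02, 5.26 and 5.55 log2 CPM in Ctr and 4.68, 4.91 and 5.21 in SD. Its log2 fold change was -0.33 ± 0.03 (adjusted p = 1.8e-18), it was lower in SD in 39 of 39 lines, and 30 SD pools were under every Ctr pool. Notch3, a receptor of mural cells, fell by 0.30 (SE 0.04, adjusted p = 5.6e-11) in 38 lines. Vtn, a matrix protein that pericytes make in the brain, fell by 0.19 (SE 0.03, adjusted p = 7.4e-07), also in 38 lines, and Myh11, the smooth muscle myosin, by 0.20 (SE 0.05, adjusted p = 1.3e-04) in 36 lines. Rgs5, a regulator of G-protein signals typical of pericytes, had a change of -0.05 ± 0.04 (adjusted p = 0.25). The contractile genes Acta2 and Tagln had values of 0.05 ± 0.05 (adjusted p = 0.33) and -0.02 ± 0.06 (adjusted p = 0.78). Within the mural list, then, 3 of 4 pericyte genes and 1 of 3 smooth muscle genes passed, all lower. Over all genes 68.4% passed and 35.4% were lower, and lists this short are no test of a cell type. Markers of meningeal fibroblasts fell as well. Over pools within a condition, their list had r = 0.15 with the mural list in Ctr and 0.20 in SD, which does not bear on a change between conditions. Of the 11 listed meningeal markers 9 fell and none rose, where 35.4% of all genes were lower. Their median log2 fold change was -0.28, and their summed level was 90.5 to 190 CPM in Ctr and 75.6 to 130 CPM in SD. Their part in the mural result was not tested. Of the 6 choroid plexus markers none passed.

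Per kilobase of exon, a scale on which genes can be compared with each other, the highest level in Ctr was that of Vtn, at 36.0 ± 3.85 RPKM, CPM divided by exon length (SD, n = 39). Itm2a (30.4 ± 3.19), Pltp (30.4 ± 2.98) and Slco1c1 (28.2 ± 2.49) followed, each within 1 SD of the next of these. Ly6c1, Tjp1, Cldn5, Ly6a and Slco1a4 lay between 17.4 and 23.3, with Ly6c1, Tjp1 and Cldn5 within 1 SD of each other and likewise Ly6a and Slco1a4. The other members were lower, down to Gkn3 (2.57 ± 0.77), Vwf, Emcn, Ocln and Bmx (0.55 ± 0.11).

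Other genes linked to vessels were taken from lists of related genes. They need not be limited to vessel cells, and bulk cortex does not show in which cells a level changed. Of 27 further genes of endothelial cells in general, 7 rose and 12 fell. The largest changes were those of the flow-responsive transcription factors Klf2 (2.34 ± 0.27 log2 CPM in Ctr and 3.29 ± 0.28 in SD, higher in 38 of 39 lines) and Klf4 (2.41 ± 0.23 and 3.35 ± 0.28, higher in 39). Their log2 fold changes were 0.95 ± 0.06 (adjusted p = 6.8e-25) and 0.94 ± 0.06 (adjusted p = 6.5e-26). Neither is limited to the endothelium. The Wnt inhibitor Apcdd1 and the endothelial lectin Clec14a fell by 0.67 and 0.63 on the log2 scale, in 39 of 39 lines each (adjusted p = 1.6e-25 and 3.8e-20). Of 15 other barrier transporters and junction proteins, 4 rose and 6 fell. The glucose transporter Slc2a1 rose by 0.47 ± 0.04 (adjusted p = 1.6e-19) and Lsr, a protein of tricellular junctions, by 0.34 ± 0.05 (adjusted p = 3.8e-08). The transferrin receptor Tfrc and the glutamine carrier Slc38a5 fell by 0.67 (SE 0.03, adjusted p = 8.7e-31) and 0.70 (SE 0.12, adjusted p = 1.9e-07). Of the 13 arterial genes, 4 rose and 6 fell. Notch4 was higher in SD in 39 of 39 lines (0.92 ± 0.06, adjusted p = 1.5e-22), Cytl1 rose by 0.30 ± 0.11 (adjusted p = 0.014), and Alpl and the Notch ligand Jag1 fell by 0.43 and 0.40 (adjusted p = 3.5e-10 and 1.0e-16). Cytl1 did not pass in the 33 BXD/RwwJ lines alone (adjusted p = 0.077).

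Of the 7 listed venous and leukocyte adhesion genes, 1 passed, and the named one, the venous transcription factor Nr2f2, fell by 0.21 (SE 0.05, adjusted p = 4.6e-04). In the fit with a replicate block, 2 of these 7 rose and 3 fell. Of 19 vascular ligands and genes of the Wnt and Norrin pathway, 6 rose and 9 fell. Pdgfb, the ligand of the falling Pdgfrb, rose by 0.43 ± 0.05 (adjusted p = 5.5e-13) and the VEGF co-receptor Nrp1 by 0.35 ± 0.04 (adjusted p = 9.0e-15), in 38 of 39 lines each. The apelin receptor Aplnr and the Norrin gene Ndp fell by 0.43 (adjusted p = 1.4e-03) and 0.41 (adjusted p = 2.3e-15). Of 20 other mural genes listed, 4 rose and 9 fell. Higd1b and Lmod1 rose by 0.35 and 0.33 (adjusted p = 3.6e-07 and 2.1e-05), and Heyl, a target of Notch signalling, and the adhesion molecule Mcam fell by 0.64 and 0.50 (adjusted p = 3.5e-18 and 4.2e-16), in 39 of 39 lines each. Genes of each list thus moved in both directions, apart from the venous list. Median log2 fold changes ran from -0.12 in the other mural genes to 0.00 in the venous genes, against -0.01 over all genes.

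The 3 members that rose in 39 of 39 lines were Mfsd2a, Ly6c1 and Ly6a, and the 5 that fell in all of them were Slco1a4, Pltp, Itm2a, Gkn3 and Pdgfrb. The share of all genes that did so was not computed, and related genes such as Klf4, Notch4 and Tfrc also moved in a single direction in all 39. Line by line, the size of the response was compared with that of the mean of the other lines, as the slope of the change in a line on that mean. Over the 34 members the slope was lowest in BXD45 (0.43) and BXD89 (0.49) and highest in BXD49 (1.58) and BXD95 (1.47). Members with a large mean change weigh most in the slope, above all Gkn3 (-1.49), which has few reads. BXD49 had the largest falls of Gkn3 (-2.73) and Bmx (-2.30), and BXD45 the smallest fall of Gkn3 (-0.20). Over the 10167 other genes called in cortex, BXD89 had the lowest slope of all (0.27) and BXD45 the next (0.71), so the small vascular change of these lines went with a small change of the cortex in general. BXD49, at 0.95, and BXD95, at 1.13, were less apart there. Leaving out BXD89 left 24 members called, 7 higher and 17 lower, and so did leaving out BXD85 and BXD90.

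**Figure D3:**
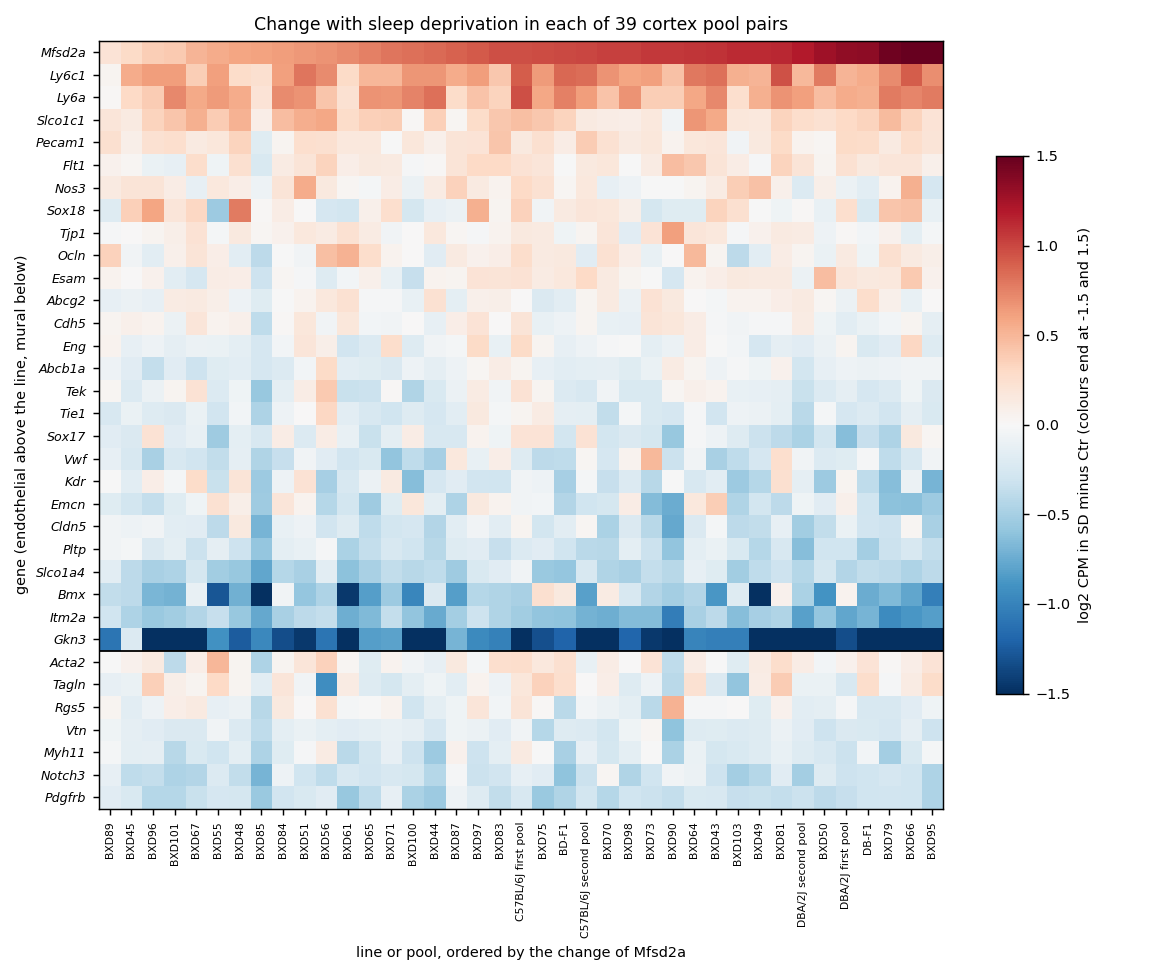
Change with sleep deprivation (colour, log2 CPM in SD minus Ctr, red higher and blue lower) of the 34 genes in each of 39 pool pairs, ordered from left to right by the change of Mfsd2a, from 0.21 in BXD89 to 1.84 in BXD95. Mfsd2a, Ly6c1 and Ly6a are red and those of Itm2a and Gkn3 blue across all pairs, and BXD85 is blue over most genes of both lists.

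In the 4 BXD/TyJ lines, 1 pool per condition each and not part of the test, Mfsd2a was higher in SD by 1.32 in BXD05, 0.87 in BXD29, 0.98 in BXD29t and 1.59 in BXD32. The changes of Gkn3 in these lines were -2.21, -0.62, -0.83 and -1.59. Of the 24 members called, 16 changed in the same direction as the 39 pools in all 4 BXD/TyJ lines, 7 in 3 of them and 1, Abcb1a, in 2. The same shares over all called genes were not computed, so these counts describe the members alone. The F1 hybrids were close to the lines, with changes of Mfsd2a of 0.98 in BD-F1 and 1.35 in DB-F1 and of Gkn3 of -1.20 and -1.54.

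Lines differed in their vascular levels, and those of Ctr and SD went together. The mice of both conditions are different animals of the same line, but the study paired them within its cohorts, so that line and cohort cannot be told apart in a correlation over lines. Over 39 pools, 28 of the 34 members passed (permutation test with 100000 resamples, Benjamini-Hochberg adjusted over all cortex genes), against 45.4% of all genes. The median Pearson's r was 0.51 over the members, 0.46 over the endothelial and 0.57 over the mural ones, where all 7 passed, and 0.33 over all genes. Nos3 had the highest value (r = 0.76, Spearman's rho 0.76), followed by Vtn (r = 0.71, rho 0.75), Vwf (r = 0.69, rho 0.67) and Slco1a4 (r = 0.68, rho 0.68), with adjusted permutation p of 6.9e-05, 1.2e-04, 6.9e-05 and 6.9e-05. Without the 2 pools farthest from the median Ctr level, these were 0.74, 0.71, 0.62 and 0.67. Among those that did not pass were the members with the largest responses, Mfsd2a (r = 0.31, adjusted permutation p = 0.10) and Gkn3 (r = 0.30, adjusted permutation p = 0.11), together with Slco1c1 (0.31), Tjp1 (0.29), Sox18 (0.29) and Bmx (0.08). For Ocln and Sox17, r fell to 0.28 each without 2 such pools, so that these relations rest on those pools (unadjusted permutation p = 0.094 and 0.089). Parental pools and sublines are not independent of each other, and in the 33 BXD/RwwJ lines alone 25 members passed. Without BXD85 and BXD90 the median r over the members was 0.50.

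The spread of the Ctr level over the 33 BXD/RwwJ lines was 0.11 to 0.40 on the log2 scale (SD). For 29 of 34 members it was larger than the SD between the first and second pools of a parental strain. The median ratio was 1.59. That SD between pools was taken over Ctr and sleep-deprived pools alike, and for each gene it rests on only 4 pairs of pools. The share over all genes was not computed. For Gkn3 the ratio was 0.66. Its first and second Ctr pools were at 1.54 and 1.12 in C57BL/6J and 1.23 and 0.48 in DBA/2J. The sleep-deprived pools of Gkn3 were at -0.40 and -1.44 in C57BL/6J and -0.09 and -1.17 in DBA/2J.

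The parental strains differed in 13 members (limma over 8 libraries with condition as a covariate, adjusted p under 0.05), 12 lower and 1 higher in DBA/2J, against 25.5% of all genes, of which 13.9% were lower in DBA/2J. The median difference, DBA/2J minus C57BL/6J, was -0.18 over the members and 0.01 over all genes. Reads of both strains were aligned to mm9, and whether sequence variants between the strains affected the counts was not tested. Nos3 differed most. Its Ctr levels were 3.90 and 3.84 log2 CPM in the C57BL/6J pools and 3.39 and 3.40 in the DBA/2J pools, its SD levels 4.20 and 4.01 against 3.30 and 3.20, and the groups did not overlap in either condition. The difference of Nos3 was -0.66 ± 0.09 (adjusted p = 3.5e-05). Slco1a4 and Vtn were lower in DBA/2J by 0.32 and 0.30 (adjusted p = 9.5e-04 and 1.6e-04), Cldn5 by 0.32 (adjusted p = 7.9e-03) and Pdgfrb by 0.24 (adjusted p = 2.1e-03). Ocln, Esam, Eng, Abcg2, Vwf, Itm2a and Sox18 were lower by 0.20 to 0.31. Without a variance trend, 5 members were called (20.2% of all genes), namely Nos3, Slco1a4, Vtn, Pdgfrb and Ocln, all lower in DBA/2J, and Cldn5 was not (adjusted p = 0.0624). Without the first SD pool of C57BL/6J, 8 were called. In the 8 fits that left out 1 library each, the calls of Itm2a and Sox18 were lost in 5, that of Abcg2 in 4, those of Esam and Ocln in 3 and those of Eng and Vwf in 2. Mfsd2a was higher in DBA/2J by 0.23 (SE 0.07, adjusted p = 0.037), with SD levels of 5.63 and 5.40 against 5.22 and 5.08 and Ctr levels of 4.30 and 4.21 against 4.25 and 4.08. Mfsd2a did not pass in 5 of these 8 fits, nor without a variance trend.

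The members varied together over pools. As a description, the median Pearson's r over the 39 Ctr pools was 0.28 for the 351 pairs of endothelial members, 0.40 for the 21 pairs of mural members and 0.28 for the 189 pairs between both lists, against -0.0005 for all pairs of genes. Pools share a library with all their genes, so these values also hold what depth and tissue content share. They rest in part on 1 pool, since without BXD85 the medians were 0.18, 0.32 and 0.19. In SD pools they were 0.24, 0.46 and 0.27. The changes per line varied together less, with medians of 0.17, 0.29 and 0.18. The mean standardized levels of the endothelial and mural lists correlated at r = 0.77 (rho 0.71) in Ctr and 0.78 in SD. Without BXD85 the Ctr value was 0.65 (rho 0.69), without BXD90 0.77 and without both 0.64. With the astrocyte list the endothelial one had r = 0.42 (rho 0.34), with the microglia list 0.46 (rho 0.33) and with the list of excitatory neurons -0.10 (rho -0.04). Without BXD85 and BXD90 these were 0.42, 0.39 and -0.07. The other lists of cells outside the vessels had Ctr values with the endothelial list from -0.25 (choroid plexus) to 0.28 (oligodendrocytes).

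The pair of members most alike was Slco1a4 and Itm2a (r = 0.77 in Ctr and 0.74 in SD), both falling, followed by Flt1 and Abcb1a (0.75 and 0.66) and Tek and Rgs5 (0.71 and 0.54). Ly6c1 and Ly6a had r = 0.66 and 0.73, and Acta2 and Myh11, both of smooth muscle, 0.65 and 0.75. Without BXD85 and BXD90 the Ctr values of these 5 pairs were 0.79, 0.66, 0.65, 0.60 and 0.58. Against the mean of the other members of its list, Tie1 stood highest among endothelial genes (r = 0.82 in Ctr and 0.77 in SD) and Myh11 among mural ones (0.73 and 0.70). The lowest values were those of Gkn3 (-0.07 in Ctr), Vwf (0.13), Nos3 (0.18) and Tjp1 (0.20). Without BXD85 and BXD90, Tie1 was at 0.74, Myh11 at 0.64, Gkn3 at 0.09, Vwf at 0.12, Nos3 at -0.10 and Tjp1 at 0.15. Mfsd2a had r = 0.41 with the rest in Ctr (0.49 without both pools) and -0.10 in SD.

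**Figure D4:**
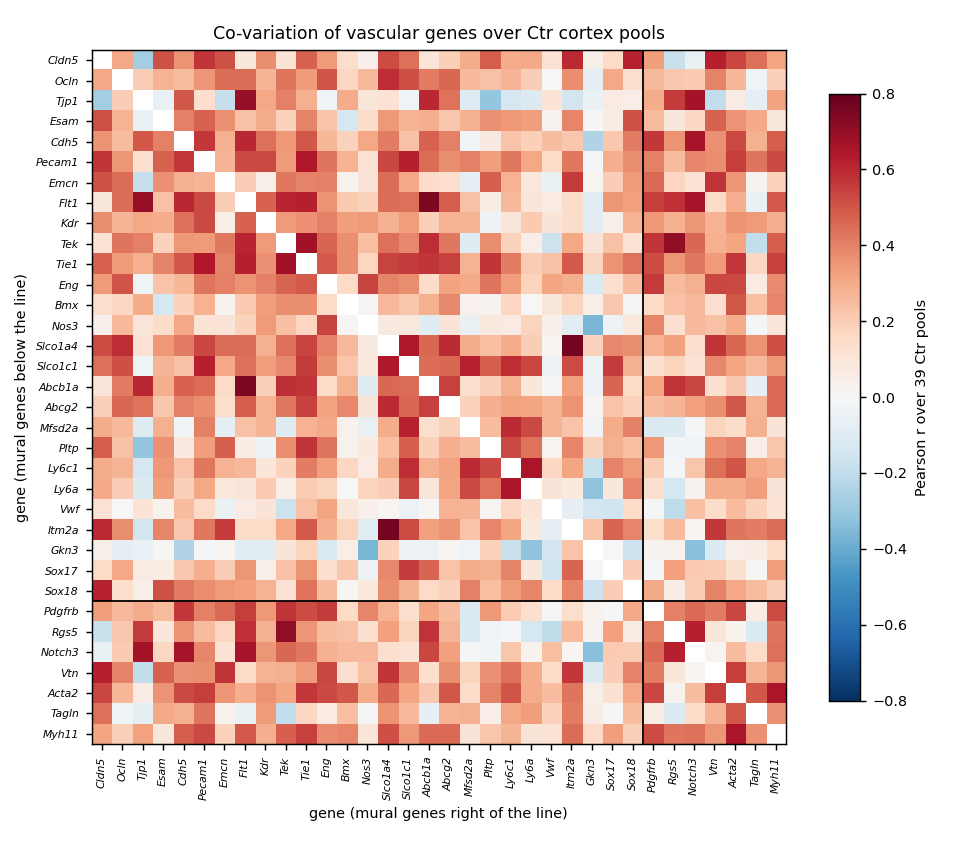
Pearson's r over 39 Ctr pools (colour, red positive and blue negative) for each pair of the 34 genes, with mural genes right of and below the black lines. Most pairs are positive, 312 of 351 among endothelial genes and 20 of 21 among mural genes, and Gkn3 is pale or blue against most others.

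The genes outside the lists that were most like the endothelial mean over Ctr pools were Pak4 (r = 0.69), Ctsh (0.67), Lamb2 (0.67), Tcn2 (0.66), Sepp1 (0.66), Itih5, Thsd1, Arap3, Epas1 and Acvrl1 (0.66 each). In SD pools the r of these 10 lay between 0.27 for Sepp1 and 0.73 for Acvrl1. Those most like the mural mean were Lamb2 (0.80), Itih5 (0.67), Ptprb (0.67), Mast2 (0.66), Gpr116 (0.63), Slc38a5 (0.63), Cnn2 (0.63), Uaca (0.62), Gja4 (0.62) and Smtn (0.61). Lamb2, a laminin chain of basement membranes, and Itih5 stand in both sets. Of the 10 genes most like each list, 4 of the endothelial and 6 of the mural set were still among the 10 most like without BXD85, 8 and 9 without BXD90, and 4 and 5 without both. Ptprb, Gpr116 and Slc38a5 were in the lists of related vascular genes.

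In liver, whose vessels are lined by a fenestrated endothelium without a barrier, 33 of the 34 members were analysed (Gkn3 was not). Of these, 5 rose and 5 fell (limma, adjusted p under 0.05), against 44.2% of all liver genes, and 2 rose and 4 fell in both tissues. With a replicate block for the line, 7 rose and 6 fell (53.9% of all liver genes passed), Ly6a being added to those that fell (adjusted p = 6.3e-03) and Vwf and Sox18 to those that rose (adjusted p = 2.0e-03 and 0.040). By voom with that block, 8 rose and 6 fell (54.8% of all genes passed). Mfsd2a, which hepatocytes also express, rose there too, from 5.81 ± 1.03 log2 CPM in Ctr to 7.11 ± 0.63 in SD (SD, n = 39), by 1.31 ± 0.19 (adjusted p = 1.1e-08) and in 39 of 39 lines. Pecam1 rose in both tissues (0.25 ± 0.05 in liver, adjusted p = 9.8e-05). Cldn5 (-0.37 ± 0.07), Slco1a4 (-0.42 ± 0.13), Abcb1a (-0.62 ± 0.12) and Kdr (-0.16 ± 0.06) fell in both, with adjusted p of 7.2e-06, 4.9e-03, 4.5e-06 and 0.025 in liver. Several members, among them Slco1a4, Abcb1a, Pltp and Vtn, are also made by hepatocytes, so that the same symbol need not stand for the same cell in both tissues.

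The response differed between the tissues for 16 members (limma on the per-line difference between the liver and cortex changes, adjusted p under 0.05), against 57.7% of the 12695 genes listed in both, with 10 changing more upward in liver and 6 more downward. The largest difference was that of Ly6a, which rose in cortex and had a log2 fold change of -0.19 ± 0.13 in liver (difference -0.74 ± 0.08, adjusted p = 1.6e-10). The liver change of Ly6a was above the cortex change in only 2 of 39 lines. Abcb1a fell further in liver (-0.53 ± 0.10, adjusted p = 1.1e-05). Itm2a, Vwf, Pltp, Pdgfrb and Vtn fell in cortex and did not pass in liver without the block, with differences of 0.40, 0.40, 0.28, 0.27 and 0.22. Tagln and Esam rose in liver by 0.37 ± 0.08 and 0.29 ± 0.05 and did not pass in cortex (differences 0.39 and 0.23). Itm2a had 20.8 reads per Ctr pool in liver, and Ly6c1 9.15. The tissue difference of Ly6c1 (-0.30 ± 0.17, adjusted p = 0.12) did not pass, and the part of depth in this was not tested.

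**Figure D5:**
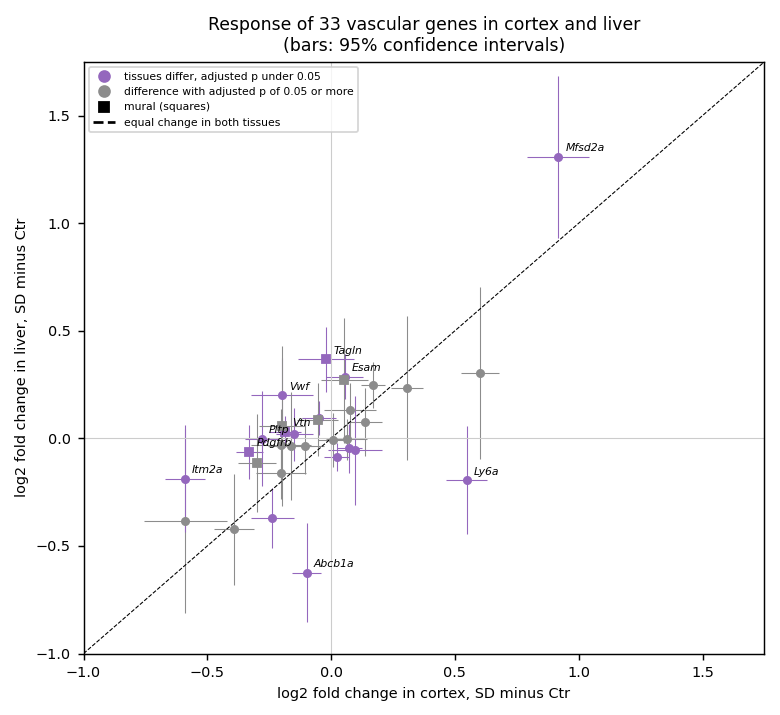
Log2 fold change (SD minus Ctr) in cortex on the horizontal and in liver on the vertical axis for the 33 members with values in both, with 95% confidence intervals, mural genes as squares, and the dashed line marking equal change. Purple marks the 16 genes whose response differed between the tissues, those that differ by more than 0.2 are named, and Mfsd2a is high in both while Ly6a lies to the lower right.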

How the data were processed

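RNA-seq of cortex and liver of BXD mice was analysed from 2 tables per tissue, 1 per condition. Per the paper's methods, the authors prepared stranded mRNA libraries from pooled RNA, aligned single-end reads to mm9 with STAR, counted reads of the matching strand on RefSeq genes with htseq-count, excluded genes with a low mean count, and normalized with edgeR's TMM method. The deposited values are log2 CPM with a prior count added, which shrinks fold changes of genes with few reads. Reads worked back from the scaling were whole for 100% of the values (tolerance 0.02), and these served for depth and voom.

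SD and Ctr pools were compared with lmFit and trended eBayes of limma 3.58.1 (R 4.3.3) over 14896 genes in cortex and 14107 in liver, 39 pools each. The paper's text names voom weights, which are an alternative here. The pools of both conditions with the same line name are of the same line. Deviations from the condition mean correlated within a line at 0.299 or more in cortex (median 0.614) and 0.169 or more in liver (median 0.475), against medians of -0.0197 and -0.018 between lines. A paired fit, blocking on the line, was therefore run as an alternative. P-values measure the spread between pools, not between mice. Tissue differences were tested on the change per line, and correlations over lines with 100000 permutations (numpy 2.4.6). Exon lengths, positions and shared 100-base stretches came from Gencode's annotation of mm9, as unions of coding transcripts, and promoters from RefSeq (GRCm38.p6). Scripts were tested on simulated data.

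The members and all lists were chosen with earlier results of these data known. Named are all members, the 2 largest rises and the 2 largest falls past the threshold in each list of related genes, and the 10 genes most like each list. Members are not replicates of a condition, and lists are described by counts and medians without a test. Other alternatives were median-centred and quantile-normalized libraries, eBayes without a trend, a filter at a mean log2 CPM of 0, the 33 BXD/RwwJ lines alone, averaged parental pools, all 43 pools, and leaving out BXD79, BXD85 and BXD101, the lines with fewer mice.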

Additional observations from a re-analysis of the deposited data

Results flagged for a closer look

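The response to sleep deprivation differed between liver and cortex by the test of the difference itself for 16 of the 33 members with values in both, given as liver minus cortex on the log2 scale. Those with the higher change in liver were Itm2a (0.40), Vwf (0.40), Mfsd2a (0.39), Tagln (0.39), Pltp (0.28), Pdgfrb (0.27), Esam (0.23), Vtn (0.22), Tie1 (0.17) and Eng (0.14). Those with the lower change in liver were Ly6a (-0.74), Abcb1a (-0.53), Nos3 (-0.15), Cldn5 (-0.13), Tjp1 (-0.12) and Abcg2 (-0.11). Of these, Mfsd2a rose and Cldn5 and Abcb1a fell in both tissues. Esam, Eng and Tagln rose and Abcg2 fell in liver without passing in cortex. Several of these genes are also made by hepatocytes, whose part in the differences was not tested.

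In the 4 BXD/TyJ lines, the change of Esam in cortex was 0.39 in BXD32, far from the other three, which lay between -0.10 and -0.05. The gap was 0.89 of the range, above Dixon's critical value for 4 values. Of 34 members tested in this way 1 stood out, where chance gives about 1 in 20.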

How the results depend on the processing

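The count of members called in cortex was 24 and stayed between 23 and 25 under every alternative. With the line as a replicate block it was 25, Nos3 being added, and the paired fit changed no other call of a member in cortex. Quantile normalization took Tjp1 below the threshold and turned the near-zero value of Cdh5 to -0.00221. In liver, voom with the line as a replicate block called 8 members higher instead of 5, and the paired fit alone called 13 in place of 10. Eng in liver lost its call with quantile normalization (adjusted p = 0.11), without BXD85 and BXD90 (adjusted p = 0.0577) or without BXD89 (adjusted p = 0.0551), and Abcg2 with median-centred libraries or in the 33 BXD/RwwJ lines alone. For the difference between tissues, an interaction term with no replicate block gave 3 members with the lower change in liver instead of 6, Cldn5, Tjp1 and Nos3 being lost, and Mfsd2a was lost among those with the higher change. Median-centred libraries left the tissue difference of Cldn5 (adjusted p = 0.0505) and Tjp1 (adjusted p = 0.0521) uncalled, as did the 33 BXD/RwwJ lines alone for Cldn5. Between the parental strains, eBayes without a trend called 5 members in place of 13, namely 0 higher and 5 lower in DBA/2J. Leaving out 1 parental library at a time gave 8 to 12 members, 0 to 1 higher and 7 to 12 lower in DBA/2J, with the fewest without the first SD pool of C57BL/6J. With the pool of the start or end of the study as a replicate block, 17 were called. The cause of these shifts was not tested. The correlations over lines passed for 25 to 28 members, and co-variation kept its sign under each alternative. The settings without BXD85, BXD89 and BXD90 were chosen after seeing the data. Depth limits Gkn3 and Bmx in cortex and Ly6c1, Slco1c1 and Bmx in liver.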
